A study of Mus musculus with 9 samples.

Results

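The interleukin-6 (IL-6) family of cytokines was described in mouse kidney through 9 genes chosen by name out of the 55385 genes of the expression table. The members were the ligands Il6, Lif, Osm, Il11 and Clcf1 and the receptor chains Il6ra, Il6st, Lifr and Osmr. All 9 were in the table, and all 9 were among the 20324 genes with a mean count of at least 10 over the 9 libraries. Il6 and Osm passed this filter with low mean counts (34.0 and 39.3), most of which came from HN libraries. Il6, with 249 counts in HN, 57 in PEC and 0 in Control libraries, reached the filter only through HN libraries.

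The libraries were made from poly(A) RNA of kidneys of male C57BL/6 mice, with 3 libraries in each of 3 groups. The publication names the strain C57BL/6J and gives an age of 8 to 10 weeks for the mice in which the model was set up. Control mice (replicates 2, 4 and 5) were untreated. HN mice (replicates 4, 8 and 12) had hyperuricemic nephropathy, a kidney injury caused by excess uric acid, and had been fed adenine at 0.16 g/kg together with potassium oxonate, which blocks uric acid breakdown, at 2.4 g/kg on alternate days for 4 weeks. PEC mice (replicates 1, 2 and 3) received the same agents and, over the same 4 weeks, the plant flavonoid pectolinarigenin by mouth. The dose of PEC was 25 mg/kg daily, which is taken from the publication since the sample labels name none. The agents and PEC were given together from the start, and PEC without the agents was not analysed here. The comparisons asked how the family differed between injured and healthy kidneys and between injured kidneys with and without PEC.

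Total counts were 57714111 to 81069646 per library. The PEC libraries stood apart from the others in several measures. Their expression of long genes was low relative to short genes (Spearman's rho of a gene's deviation with its length, across genes, of -0.21 to -0.26, against 0.06 to 0.09 in Control and 0.20 to 0.23 in HN libraries). Their rho with GC content was 0.21 to 0.25, against -0.21 to -0.07 in the other libraries, and 0.304%, 1.73% and 0.306% of their counts fell on ribosomal RNA loci, against at most 0.00788% elsewhere. Mitochondrial genes took 12.9% to 16.3% of counts in Control, 6.01% to 6.34% in HN and 10.3% to 13.6% in PEC libraries, and the part of this in the results was not tested. The 4 receptor chains were long (8642 to 12113 exonic bases) and the 5 ligands were short (2081 to 4350 exonic bases). Values with the length trend removed are therefore given below where they changed a call. The trend followed the groups, so library preparation and PEC treatment cannot be told apart in it. Its removal may take away either. PEC replicate 3 also had high levels of adipocyte markers. Its summed level of 4 adipocyte markers (Adipoq, Plin1, Lep and Cfd) was 392.72 FPKM, against 0.04 and 0.49 FPKM in the other PEC libraries, and Control replicate 2 and HN replicate 12 had sums of 13.98 and 44.26 FPKM. Results that rested on PEC replicate 3 are therefore given with and without it.

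IL-6 family cytokines signal through receptor complexes that contain gp130, the product of Il6st, which most cell types make. IL-6 and IL-11 bind their own receptor chain before gp130, whereas LIF pairs gp130 with the LIF receptor and oncostatin M pairs it with the oncostatin M receptor. The complexes activate Janus kinases (JAK) and the transcription factor STAT3, and STAT3 induces acute-phase genes as well as Socs3, an inhibitor that limits further signalling. In the injured kidney the family is known for its part in tubular stress responses, inflammation and fibrosis.

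The start regions of 3 ligand genes that were higher in HN than in Control kidneys are shown, chosen because they held a match to a motif searched. RefSeq promoter windows (GRCm38.p6, the 250 bases before a start) were matched for 7 of the 9 members, with 9 windows in all, and not for Osm and Clcf1. They were searched on both strands for TTCNNNGAA (STAT), TGANTCA (AP-1), an NF-kB motif of 10 bases (GGGA, any base, then TTTCC) and TATAAA, which were held by 7.02%, 6.75%, 0.356% and 12.4% of all 32851 windows. TGANTCA was found in 3 of the 9 windows, the NF-kB motif in the Il6 window, and TTCNNNGAA and TATAAA in 0 of the 9 windows. The windows of Osmr and Il6ra, which were also higher in HN, held none of the 4 motifs, nor did those of Il6st and Lifr. Capitals mark the matches, none of which overlapped another, and a match is a description of letters and not a sign that a factor binds there. The Il6 window lies directly before the gene at chr5:30012864-30013113 on the plus strand, with TGANTCA from position -249 and the NF-kB motif from position -44 relative to the start. The Lif window is shown up to the first annotated exon, at chr11:4257318-4257556 on the plus strand, with TGANTCA from position -228. That position counts from the RefSeq start, and the last 11 bases of the window, which lie in the annotated exon, are left out, so the match begins at -217 from the end of the bases shown. Il11 had 2 windows. The one at the annotated gene start (chr7:4782858-4783107, minus strand) held none of the 4 motifs and is not shown. The one shown, chosen for its match, lies in an intron of the annotated gene, before an internal start, at chr7:4778142-4778391 on the minus strand, with TGANTCA from position -98.
Il6: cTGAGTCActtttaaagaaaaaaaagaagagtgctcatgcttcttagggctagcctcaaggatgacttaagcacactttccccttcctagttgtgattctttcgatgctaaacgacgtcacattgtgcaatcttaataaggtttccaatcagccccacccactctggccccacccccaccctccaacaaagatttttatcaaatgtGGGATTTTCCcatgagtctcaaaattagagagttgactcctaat
Lif: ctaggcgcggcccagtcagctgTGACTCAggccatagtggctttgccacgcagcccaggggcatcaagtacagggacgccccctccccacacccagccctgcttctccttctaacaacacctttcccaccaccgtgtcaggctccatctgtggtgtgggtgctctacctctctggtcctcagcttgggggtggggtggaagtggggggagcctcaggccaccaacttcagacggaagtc
Il11: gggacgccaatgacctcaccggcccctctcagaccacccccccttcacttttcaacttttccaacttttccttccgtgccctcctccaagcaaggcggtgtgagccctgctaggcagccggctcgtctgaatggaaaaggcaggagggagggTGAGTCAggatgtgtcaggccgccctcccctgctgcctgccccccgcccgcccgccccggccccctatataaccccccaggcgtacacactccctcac

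In HN kidneys 7 of the 9 members passed the test with higher levels than in Control, namely the 5 ligands and the receptor chains Osmr and Il6ra. Among them, Il6 met the count filter only through HN libraries. Without a filter on low counts 7 members were called higher as well. Of all genes tested 18.3% passed as higher and 15.7% as lower in HN. Passing, or being called, required an adjusted p of 0.05 or less together with 1.5-fold or more in edgeR's quasi-likelihood test, with TMM factors and Benjamini-Hochberg adjustment over all genes. The median log2 fold change was 2.39 over the 9 members and -0.01 over all genes tested. In these whole-kidney samples, a change in the number of cells of a type and a change in RNA per cell cannot be told apart. FPKM, the number of fragments divided by gene length and library total, uses library totals alone. TMM factors ranged from 0.778 to 0.832 for Control, from 1.15 to 1.23 for HN and from 1.02 to 1.04 for PEC libraries, so that a ratio of FPKM between HN and Control is larger than the fold change of the test. With library totals in place of TMM factors, the median log2 fold change of all genes was 0.55 in HN against Control, -0.22 in PEC against HN and 0.39 in PEC against Control. On that scale 37.7% of all genes passed the test as higher in HN and 6.36% as lower.

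Il6 (ENSMUSG00000025746, chromosome 5, 30013114 to 30019981, GRCm38), which encodes the founding cytokine of the family, had 0 counts in each of the 3 Control libraries. A count of 0 allows up to 3 counts, a limit that covers counting error only. HN replicates 4, 8 and 12 had 0.56, 0.29 and 0.35 FPKM, from 66 to 112 counts each. PEC replicates 1, 2 and 3 had 0.07, 0.02 and 0.23 FPKM, from 4 to 38 counts each. Each HN library was above each PEC library, although PEC replicate 3 lay close to HN replicate 8. Against a floor of 3 counts over the Control group, Il6 was at least 55.9-fold higher in HN (adjusted p = 0.0024) and at least 17.2-fold higher in PEC kidneys (adjusted p = 0.00678). PEC replicate 3 held 38 of the 57 PEC counts, and without it the bound for PEC was 8.13-fold (adjusted p = 0.00914). The qPCR primers of the publication for Il6 are shown as landmarks of the transcript, and no qPCR value is used here. Both primers matched exon 2 of 3 of the 4 annotated Il6 transcripts, and exon 1 of the other, and bound 129 bases at chr5:30013417-30013545.
Forward: acaaccacggccttccctactt
Reverse: cacgatttcccagagaacatgtg

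Lif (ENSMUSG00000034394, chromosome 11, 4257557 to 4272514) encodes leukemia inhibitory factor. Its levels were 0.26, 0.12 and 0.09 FPKM in Control replicates 2, 4 and 5, 7.84, 6.85 and 5.81 FPKM in HN replicates 4, 8 and 12, and 3.84, 3.78 and 3.63 FPKM in PEC replicates 1, 2 and 3. The 3 groups did not overlap, and PEC libraries lay between the others. Lif was 29.7-fold higher in HN than in Control (log2 fold change 4.89 ± 0.35 SE, adjusted p = 9.9e-06), the lowest adjusted p of the family in that comparison.

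Osm (ENSMUSG00000058755), the gene of oncostatin M, a cytokine made mainly by immune cells, lies 16530 bases before Lif on chromosome 11 (4236420 to 4241026). It had 0.02, 0.03 and 0.02 FPKM in Control, 0.45, 0.48 and 0.33 FPKM in HN and 0.18, 0.16 and 0.18 FPKM in PEC libraries, each list in the order of the replicates. Control libraries held only 4 to 7 counts of it and HN libraries 65 to 99. Osm was 10.9-fold higher in HN than in Control (log2 fold change 3.45 ± 0.42 SE, adjusted p = 0.000181).

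Il11 (ENSMUSG00000004371, chromosome 7, 4772373 to 4782857) encodes interleukin-11, known for its part in fibrosis. Control libraries had 0.12, 0.28 and 0.15 FPKM, HN libraries 2.86, 2.45 and 1.56 FPKM and PEC libraries 0.50, 0.58 and 1.10 FPKM. PEC replicate 3 was again the highest of its group, and the groups did not overlap. Il11 was 8.61-fold higher in HN than in Control (log2 fold change 3.11 ± 0.45 SE, adjusted p = 0.00048).

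Clcf1 (ENSMUSG00000040663, chromosome 19, 4214238 to 4223490) encodes cardiotrophin-like cytokine factor 1, which binds the ciliary neurotrophic factor receptor. Its levels were 1.75, 1.36 and 1.01 FPKM in Control, 10.61, 11.85 and 8.81 FPKM in HN and 13.87, 12.32 and 9.61 FPKM in PEC libraries. HN and PEC libraries overlapped, and both lay above Control. Clcf1 was 5.23-fold higher in HN than in Control (log2 fold change 2.39 ± 0.22 SE, adjusted p = 3.3e-05).

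Among the receptor chains, Osmr (ENSMUSG00000022146, chromosome 15, 6813577 to 6874969), the oncostatin M receptor, had 1.66, 2.07 and 1.09 FPKM in Control, 10.82, 8.47 and 8.53 FPKM in HN and 5.62, 5.59 and 5.60 FPKM in PEC libraries. It was 3.99-fold higher in HN than in Control (log2 fold change 2.0 ± 0.20 SE, adjusted p = 6.44e-05). Il6ra (ENSMUSG00000027947, chromosome 3, 89864059 to 89913196), the IL-6 binding chain, had 0.83, 1.16 and 0.64 FPKM in Control, 3.19, 2.67 and 2.18 FPKM in HN and 0.87, 1.16 and 1.02 FPKM in PEC libraries. It was 2.12-fold higher in HN than in Control (log2 fold change 1.09 ± 0.23 SE, adjusted p = 0.00411), and its PEC libraries lay within the range of Control.

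Il6st and Lifr were not called in HN against Control. Il6st (ENSMUSG00000021756, chromosome 13, 112464070 to 112510086), which encodes gp130, had 11.18, 17.24 and 18.70 FPKM in Control, 31.74, 18.71 and 29.28 FPKM in HN and 17.09, 20.46 and 17.63 FPKM in PEC libraries. Its log2 fold change between HN and Control was 0.22 ± 0.24 SE (adjusted p = 0.502), and 0.78 (adjusted p = 0.0163) with library totals in place of TMM factors, a scale on which the median gene itself moved by 0.55. Lifr (ENSMUSG00000054263, chromosome 15, 7090614 to 7197489), the LIF receptor, had 6.11, 6.30 and 5.43 FPKM in Control, 6.26, 6.21 and 6.47 FPKM in HN and 2.10, 3.03 and 5.35 FPKM in PEC libraries. Its log2 fold change between HN and Control was -0.45 ± 0.27 SE (adjusted p = 0.219) and turned to 0.11 (adjusted p = 0.762) with library totals.

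**Figure D1:**
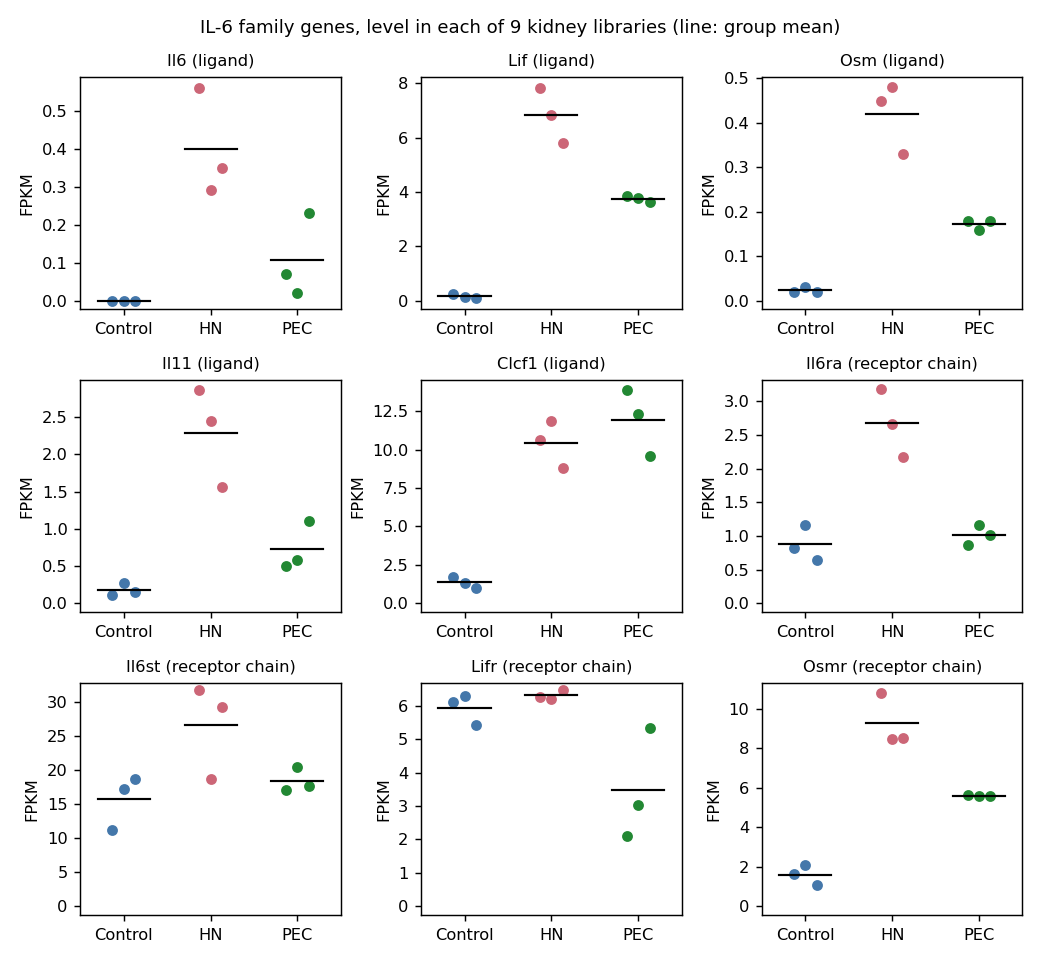
Level of each of the 9 genes in FPKM (vertical axis, own linear scale in each panel) in the 3 Control, 3 HN and 3 PEC libraries, with points for libraries and a line for the group mean. The 5 ligands, Osmr and Il6ra, which were called higher in HN than in Control, have higher group means in HN. Clcf1 stays high in PEC libraries. Lifr is low in PEC replicates 1 and 2 (2.10 and 3.03 FPKM) but not in replicate 3 (5.35 FPKM).

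In PEC kidneys 2 of the 9 members, Il6ra and Il11, were called lower than in HN and 0 were called higher, while 15.7% of all genes tested were called lower and 14.2% higher. At an unadjusted p, and also with DESeq2, 4 were called, all of them lower. The shares of all genes given here belong to the main test and not to these settings. The median log2 fold change was -0.64 over the 9 members and -0.01 over all genes tested. The log2 fold change of Il6ra was -1.17 ± 0.23 SE (adjusted p = 0.00346), and it was called lower in each of the 20 refits, with values from -1.38 to -0.83. That of Il11 was -1.44 ± 0.41 SE (adjusted p = 0.0217). The Il11 call was lost without HN replicate 4, HN replicate 8, PEC replicate 1 or PEC replicate 2 (adjusted p = 0.077, 0.0581, 0.0722 and 0.0677), while the log2 fold change stayed between -1.83 and -1.22 over all libraries left out.

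The other 7 members were not called between PEC and HN, and for most of them the outcome rested on the scaling or on a library. Il6 had a log2 fold change of -1.65 ± 0.82 SE (adjusted p = 0.153), which without PEC replicate 3 became -2.80 (adjusted p = 0.0283). Lifr had -0.63 ± 0.27 SE (adjusted p = 0.0989), and -1.05 (adjusted p = 0.00118) without PEC replicate 3. With the length trend removed, however, the value of Lifr was -0.20 (adjusted p = 0.601). Osmr had -0.50 ± 0.20 SE (adjusted p = 0.0687), which was -0.71 (adjusted p = 0.0211) with library totals and -0.04 (adjusted p = 0.888) with the length trend removed. Lif had -0.64 ± 0.29 SE (adjusted p = 0.11), which was -0.85 (adjusted p = 0.0433) with library totals and passed without Control replicate 2 (adjusted p = 0.0112). Il6 and Osm had mean counts of 34.0 and 39.3 per library, at which a 3-fold change can be missed. Osm had -1.01 ± 0.37 SE (adjusted p = 0.0529), which passed the threshold with the length trend removed (-1.11, adjusted p = 0.0404) and without Control replicate 4 (adjusted p = 0.0447). Il6st had -0.31 ± 0.24 SE (adjusted p = 0.339) and turned to 0.13 with the length trend removed. Clcf1 had a positive value, 0.42 ± 0.20 SE (adjusted p = 0.131). With library totals, 6 of the 9 members were called lower in PEC, against 22.7% of all genes.

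**Figure D2:**
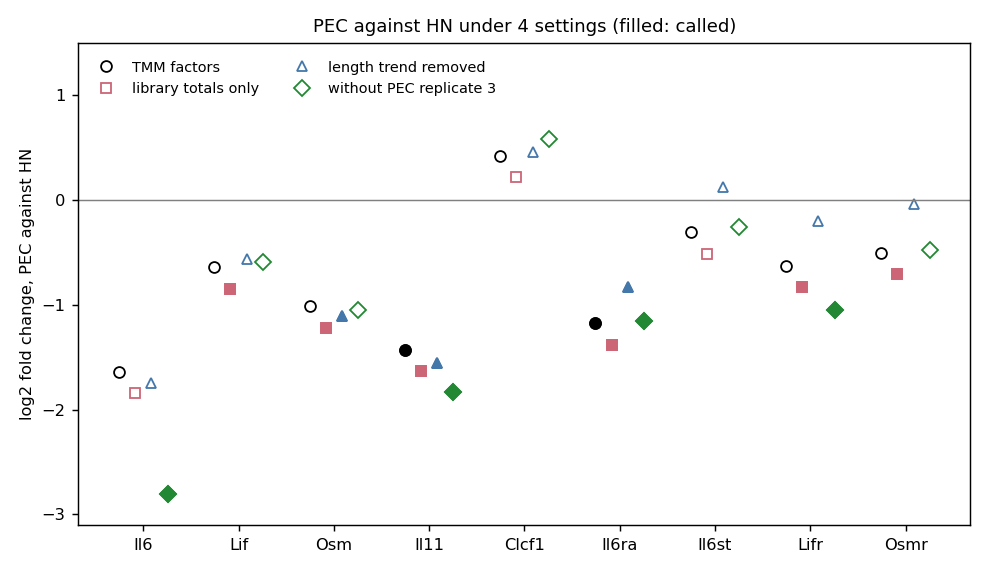
Log2 fold change of each gene in PEC against HN (vertical axis) with TMM factors, with library totals only, with the trend of expression with gene length removed, and without PEC replicate 3, with filled marks for called values. Il6ra and Il11 are filled in all 4 settings, Il6 and Lifr move furthest without PEC replicate 3, and the long receptor genes Osmr, Lifr and Il6st move towards or past 0 once the length trend is removed.

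Set against Control, 7 of the 9 members were called in PEC kidneys, 6 higher and 1 lower, while 19.7% of all genes tested were called higher and 18.1% lower. All 5 ligands were called higher, with log2 fold changes of 4.25 ± 0.34 SE for Lif, 2.81 ± 0.22 SE for Clcf1, 2.44 ± 0.41 SE for Osm and 1.67 ± 0.43 SE for Il11, and with the bound given above for Il6. Osmr was called higher as well (1.49 ± 0.20 SE, adjusted p = 0.00033). Lifr was called lower (-1.08 ± 0.28 SE, adjusted p = 0.0107). That call was lost with library totals (-0.73, adjusted p = 0.0543) and with trends of both gene length and GC content removed (-0.69, adjusted p = 0.0691), and the value without PEC replicate 3 was -1.50 (adjusted p = 0.000164). Il6ra (-0.09 ± 0.23 SE) and Il6st (-0.09 ± 0.24 SE) were not called, and both values turned positive with library totals (0.25 and 0.27). This comparison shares its libraries with the others, so the 3 sets of values are not independent of each other.

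**Figure D3:**
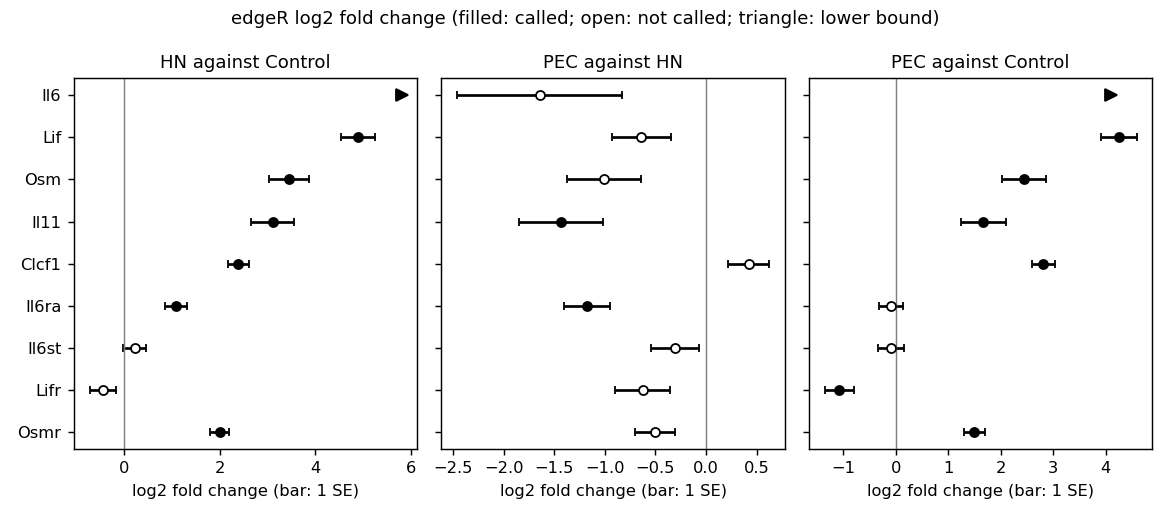
Log2 fold change (horizontal axis) of each gene in the 3 comparisons, with bars of 1 SE, filled points for called genes and a triangle for the lower bound of Il6 against Control libraries with 0 counts. The ligands lie to the right of 0 in both comparisons with Control, and Il6ra lies to the right in HN against Control, to the left in PEC against HN and near 0 in PEC against Control.

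The order of the members by mean FPKM differed between groups. In Control kidneys Il6st led with 15.7 ± 3.99 FPKM (SD, n = 3), followed by Lifr with 5.95 ± 0.457, Osmr with 1.61 ± 0.492, Clcf1 with 1.37 ± 0.370, Il6ra with 0.877 ± 0.263, Il11 with 0.183 ± 0.0851, Lif with 0.157 ± 0.0907 and Osm with 0.0233 ± 0.00577. The ranges of Osmr, Clcf1 and Il6ra overlapped from each to the next, and so did those of Il11 and Lif. In HN kidneys Il6st (26.6 ± 6.92) was followed by Clcf1 (10.4 ± 1.53), Osmr (9.27 ± 1.34), Lif (6.83 ± 1.02), Lifr (6.31 ± 0.138), Il6ra (2.68 ± 0.505), Il11 (2.29 ± 0.665), Osm (0.420 ± 0.0794) and Il6 (0.400 ± 0.142). There Clcf1 and Osmr, Lif and Lifr, Il6ra and Il11, and Osm and Il6 could not be ordered beyond their ranges. In PEC kidneys the same order held by the means, from Il6st (18.4 ± 1.81), Clcf1 (11.9 ± 2.16) and Osmr (5.60 ± 0.0153) to Osm (0.173 ± 0.0115) and Il6 (0.107 ± 0.110). The PEC ranges of Lif and Lifr, of Il6ra and Il11, and of Osm and Il6 overlapped.

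Shares and ratios within a library do not depend on the factor that scales a library, although the length trend of the PEC libraries bears on them. The summed FPKM of the 5 ligands was 1.74 ± 0.442 in Control, 20.4 ± 3.04 in HN and 16.7 ± 1.86 in PEC kidneys (SD, n = 3). Clcf1 made up 79.0% ± 2.75 of that sum in Control, 51.3% ± 3.37 in HN and 71.1% ± 5.27 in PEC kidneys. Lif made up 8.63% ± 3.01, 33.6% ± 2.07 and 22.6% ± 1.91 in the same order, and Il6 at most 2.51% in any library. Among the receptor chains Il6st made up 64.4% ± 7.90, 58.7% ± 5.94 and 64.6% ± 4.39 of the summed FPKM. The share of Osmr was 6.78% ± 2.25, 20.9% ± 2.57 and 19.8% ± 1.85, and that of Lifr was 25.1% ± 5.14, 14.4% ± 2.62 and 12.1% ± 5.26.

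**Figure D4:**
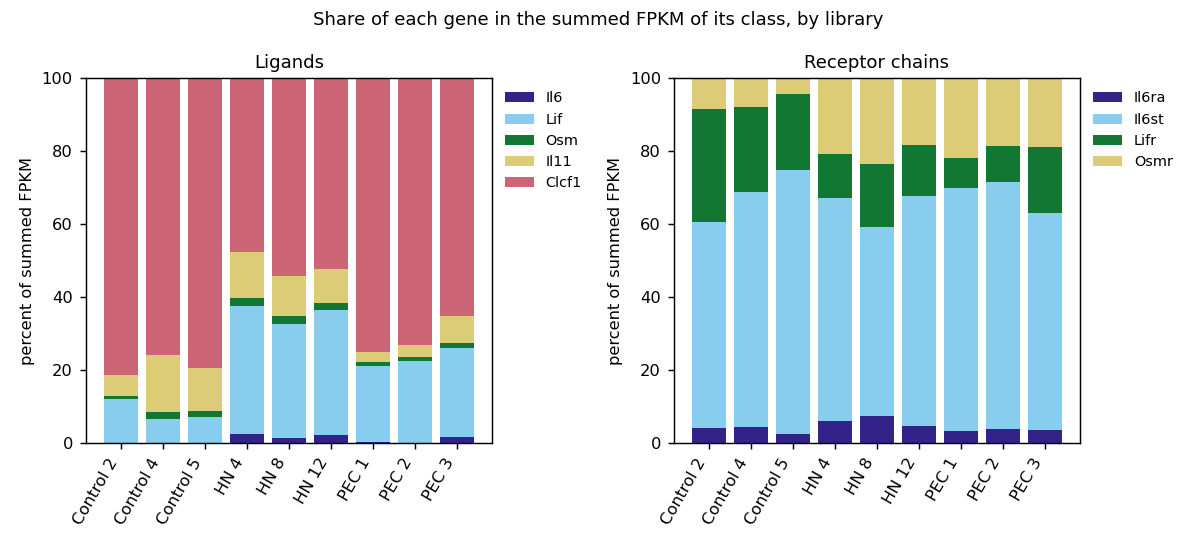
Share of each gene in the summed FPKM of the 5 ligands (left) and the 4 receptor chains (right), in percent, in each of the 9 libraries. Clcf1 holds 76.0% to 81.4% of the ligand sum in Control libraries and 47.5% to 54.1% in HN libraries, and Osmr takes 18.4% to 23.5% of the receptor sum in HN libraries against 4.22% to 8.39% in Control.

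Ratios of 4 pairs were formed after their values had been seen, and 12 differences between groups were tested by two-sided exact permutation tests, which with 3 libraries against 3 cannot give a p below 0.1. The ratio of Osmr to Lifr, neighbours on chromosome 15 with 215644 bases between them, was 0.272, 0.329 and 0.201 in Control libraries, 1.73, 1.36 and 1.32 in HN and 2.68, 1.85 and 1.05 in PEC libraries. Osmr was thus below Lifr in each Control library and above it in each HN and PEC library (exact permutation p = 0.1 for HN against Control, 0.12 after adjustment over the 12 tests). HN and PEC libraries overlapped in this ratio (exact permutation p = 0.6). The ratio of Clcf1 to Lif was 6.73, 11.3 and 11.2 in Control libraries, 1.35, 1.73 and 1.52 in HN and 3.61, 3.26 and 2.65 in PEC libraries, with no overlap between any of the groups (exact permutation p = 0.1 each). The ratio of Lif to its neighbour Osm was 13, 4.0 and 4.5 in Control libraries, where Osm rests on few counts, 17.4, 14.3 and 17.6 in HN and 21.3, 23.6 and 20.2 in PEC libraries. The ratio of Il6ra to Il6st was 0.0742, 0.0673 and 0.0342 in Control libraries, 0.101, 0.143 and 0.0745 in HN and 0.0509, 0.0567 and 0.0579 in PEC libraries, so that HN replicate 12 lay just above Control replicate 2.

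Among other ligands and subunits of the family, Il31 was at 0 in each library and was not tested. Ebi3, a subunit of IL-27 and IL-35, was higher in HN than in Control (3.33 ± 0.62 SE, adjusted p = 0.00205), as was Cntf, ciliary neurotrophic factor (0.92 ± 0.30 SE, adjusted p = 0.0334). The Cntf call was lost without Control replicate 4 or 5 or without any of the 3 HN libraries (adjusted p = 0.0508 to 0.104). Ctf1 (0.29 ± 0.16 SE, and 0.85 with library totals, which was called), Ctf2 (-0.37 ± 0.69 SE) and Il27 (1.74 ± 1.40 SE) were not called, and the latter pair had at most 0.14 and 0.57 FPKM in any library.

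Of 4 other receptor chains, HN kidneys had 1 that was called higher than in Control and 1 that was called lower (against 18.3% and 15.7% of all genes), with a median log2 fold change of -0.17. Counts of 1 in 4 lie near those shares. Il11ra1, the IL-11 binding chain, had 11.6, 13.15 and 11.71 FPKM in Control, 9.55, 9.60 and 10.32 FPKM in HN and 10.89, 10.08 and 10.82 FPKM in PEC libraries. It was lower in HN than in Control (log2 fold change -0.84 ± 0.08 SE, adjusted p = 3.47e-05). With library totals its value was -0.28 (adjusted p = 0.0228), under the fold change required. Il27ra was higher (2.39 ± 0.29 SE, adjusted p = 0.000187), while Cntfr (0.50 ± 0.29 SE, and 1.05 with library totals, which was called) and Il31ra (-1.69 ± 0.66 SE), the latter at 0.11 FPKM or less in each library, were not called. Between PEC and HN the value of Il11ra1 was 0.34 ± 0.08 SE (adjusted p = 0.00774), under the fold change required, and the other 3 had adjusted p-values of at least 0.15.

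Adam10 and Adam17 encode the proteases that shed the IL-6 receptor from cells. Both were called lower in PEC than in HN, Adam10 with a log2 fold change of -1.30 ± 0.28 SE (adjusted p = 0.00534) and Adam17 with -0.79 ± 0.12 SE (adjusted p = 0.00079). In HN against Control Adam17 was higher (0.69 ± 0.12 SE, adjusted p = 0.00115), and Adam10 was not called (0.61 ± 0.27 SE, adjusted p = 0.1). Both Adam17 calls were lost with the length trend removed, where its values of -0.51 in PEC against HN and 0.57 in HN against Control were under the fold change required. Adam10 in HN against Control was called with library totals (1.18), with DESeq2 (0.64) and without HN replicate 4 (0.81).

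Among the genes of the kinases, STAT3 and the adaptor, those called higher in HN than in Control were Stat3 (0.97 ± 0.21 SE, adjusted p = 0.00438) and the kinase gene Tyk2 (0.64 ± 0.10 SE, adjusted p = 0.000625). The Tyk2 call was lost with the length trend removed (0.52) and without HN replicate 8 (0.55), both under the fold change required. Stat3 had 9.78, 9.72 and 5.24 FPKM in Control, 26.18, 21.22 and 22.41 FPKM in HN and 12.89, 14.38 and 14.15 FPKM in PEC libraries. It was not called in PEC against HN (-0.53 ± 0.20 SE, adjusted p = 0.0668), where its value was -0.145 with the length trend removed (adjusted p = 0.612) and, as a call, -0.735 with library totals (adjusted p = 0.0218). Jak2 was called lower in PEC than in HN (-1.68 ± 0.23 SE, adjusted p = 0.000539) and also lower than in Control (-1.28 ± 0.23 SE, adjusted p = 0.00152), with 3.10, 5.91 and 3.56 FPKM in PEC against 8.36, 9.25 and 7.11 FPKM in Control libraries. Jak1 was called lower in PEC than in HN as well (-0.60 ± 0.08 SE, adjusted p = 0.00057), but its value was -0.32 with the length trend removed and -0.55 to -0.58 without HN replicate 4, PEC replicate 1 or PEC replicate 3, all short of the fold change required. With library totals Jak1 and Jak2 were also called higher in HN than in Control (0.74 and 0.95). Ptpn11, which encodes the adaptor phosphatase SHP2, was not called (-0.07 ± 0.08 SE in HN against Control).

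Feedback inhibitors were represented by 5 genes, a list written with earlier results of these data known. Of these, 3 (against 18.3% of all genes) were called higher in HN than in Control and 0 lower. Their median log2 fold change was 1.05. With library totals 3 were called as well, against 37.7% of all genes. Socs3 had 1.81, 2.19 and 0.67 FPKM in Control, 42.1, 34.53 and 30.87 FPKM in HN and 18.43, 15.86 and 15.41 FPKM in PEC libraries, with no overlap between the groups. It was higher in HN than in Control (log2 fold change 4.0 ± 0.38 SE, adjusted p = 4.02e-05), and PEC against HN missed the threshold (-0.89 ± 0.33 SE, adjusted p = 0.0605). The latter passed with DESeq2 (adjusted p = 0.018), with library totals (adjusted p = 0.0304) and without Control replicate 4 or 5 (adjusted p = 0.049 and 0.00257). Socs1 was higher in HN than in Control (2.70 ± 0.52 SE, adjusted p = 0.00255) and lower in PEC than in HN (-2.02 ± 0.50 SE, adjusted p = 0.0115). Socs2 was higher in HN (1.05 ± 0.31 SE, adjusted p = 0.0233), a call lost without Control replicate 4 or HN replicate 12 (adjusted p = 0.0615 and 0.0764). Pias3, an inhibitor of STAT3, was not called in HN against Control and was higher in PEC than in HN (0.75 ± 0.19 SE, adjusted p = 0.0133), a call lost with library totals (adjusted p = 0.0553) and without HN replicate 4 (adjusted p = 0.051). Cish (-0.18 ± 0.57 SE in HN against Control) was not called, with Control replicate 4 far above the other Control libraries (14.31 against 3.10 and 2.41 FPKM). Without that library its value turned to 1.04 (adjusted p = 0.00521), a call in the other direction.

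Genes known to respond to IL-6 or STAT3 formed a list of 24, and all were tested. The list was written with earlier results of these data known, so its shares beside those of all genes are a description. In HN kidneys 20 (83.3%, against 18.3% of all genes) were called higher than in Control and 0 lower (15.7% of all genes), with a median log2 fold change of 2.73 (-0.01 over all genes), or 2.59 with the genes at 0 counts in Control set to their lower bound. The count of genes called higher was 23 with library totals, a scale on which 37.65% of all genes were called higher. It was 18 to 22 with 1 library left out. The most abundant were Lcn2, Fgg, Mcl1 and Fga. Lcn2, the tubular injury marker lipocalin 2, had 1.37, 2.01 and 0.66 FPKM in Control, 175.95, 140.46 and 136.24 FPKM in HN and 100.93, 66.91 and 209.54 FPKM in PEC libraries. The log2 fold change in HN against Control was 6.27 ± 0.55 SE for Lcn2, 4.15 ± 0.39 SE for Fgg and 1.91 ± 0.31 SE for Fga, both chains of fibrinogen, and 0.76 ± 0.16 SE for Mcl1, a survival factor. The lowest adjusted p-values belonged to Junb (2.46 ± 0.10 SE, adjusted p = 1.41e-06), a subunit of AP-1, to the fibrinogen chain Fgb (4.15 ± 0.23 SE, adjusted p = 3.15e-06), to Timp1, an inhibitor of matrix proteases (5.68 ± 0.32 SE, adjusted p = 3.46e-06), and to Lbp, which binds lipopolysaccharide (2.73 ± 0.16 SE, adjusted p = 4.26e-06).

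Between PEC and HN, 5 of these 24 genes (20.8%) were called lower, 1 (4.17%) was called higher and 18 were not called, with a median log2 fold change of -0.41. Over all genes 15.7% were lower, 14.2% were higher and the median was -0.01, so the share called lower lay near that of all genes. With 1 library left out, 4 to 6 were lower. With the length trend removed, Timp1 was called lower as well (-0.75, adjusted p = 0.0441). Cebpb, Cebpd, Pim1 and Saa1 are named here after their values were seen. Lower in PEC were Cebpb (-2.49 ± 0.47 SE), Cebpd (-2.37 ± 0.45 SE), Junb (-1.29 ± 0.10 SE), Pim1 (-1.0 ± 0.26 SE) and Lbp (-0.92 ± 0.15 SE), of which the first 3 encode transcription factors. The Pim1 call was lost without HN replicate 4 (-0.73, adjusted p = 0.053). Saa1, an acute-phase protein gene, was higher in PEC than in HN, with 5.57, 0.56 and 0.80 FPKM in PEC against 0.12, 0.27 and 0.07 FPKM in HN libraries (adjusted p = 0.0186). Most of it came from PEC replicate 1, and the call was lost without HN replicate 4 or 12 (adjusted p = 0.0693 and 0.0615). The fibrinogen chains differed little between PEC and HN relative to their errors, at 0.09 ± 0.30 SE for Fga, -0.05 ± 0.20 SE for Fgb and -0.10 ± 0.34 SE for Fgg. Against Control, 18 of the 24 (75.0%, against 19.7% of all genes) were called higher and 1 (4.17%, against 18.1%) lower, Cebpb, in PEC kidneys. The Cebpb call (-1.55 ± 0.46 SE, adjusted p = 0.0206) was lost with library totals (adjusted p = 0.0501) and without Control replicate 2, PEC replicate 1 or PEC replicate 2 (adjusted p = 0.0552 to 0.0685).

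**Figure D5:**
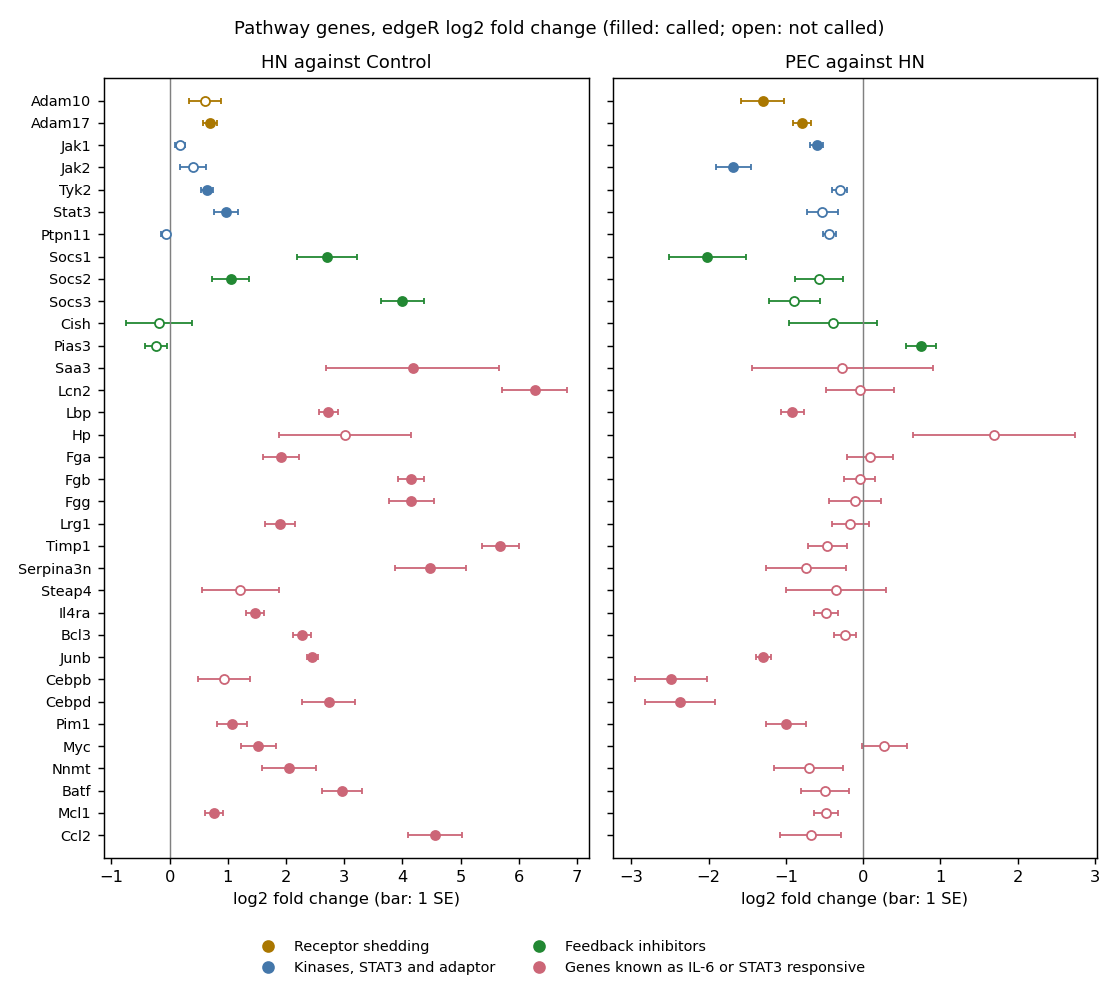
Log2 fold change (horizontal axis, bars of 1 SE) of the shedding proteases, the kinases, STAT3 and adaptor, the feedback inhibitors and the responsive genes in HN against Control (left) and PEC against HN (right), filled where called. Saa1 and Saa2, with 0 counts in Control libraries, are left out. Most responsive genes lie to the right of 0 in HN against Control, and on the right Cebpb, Cebpd, Socs1 and Jak2 lie furthest below 0.

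Each member was compared with 15358 of the 15508 genes whose FPKM averaged 0.5 or more. The genes with the pattern most like that of a member were found by Pearson's r of log2(TMM-scaled CPM + 1) over the 9 libraries. These values describe libraries that fall into 3 groups, so a high r mainly follows the differences between groups. Osmr was most like Socs3 (r = 0.996), Tuba1b and Litaf. Lif was most like Siglece (r = 0.997), Panx1 and Bcl3, Osm was most like Prkcb (r = 0.995), Lrrk1 and Rcn3, and Il11 was most like Atp10a (r = 0.996), Mfge8 and P2ry12. Clcf1 was most like Clu (r = 0.994), the gene of the tubular injury marker clusterin, Sfxn3 and Pilrb1. Il6ra was most like Ptpn1 (r = 0.979), Peak1 and Fryl. Lifr was most like Lysmd4 (r = 0.986), Ppp6c and Ube4a. Il6st had the least close match, Kif2a (r = 0.922), followed by Syt11 and Lrrc56.

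Markers of some kidney and immune cell types were called between the groups and those of others were not. For all genes the share that passed as higher was 18.3% in HN against Control and 14.2% in PEC against HN, and the share that passed as lower was 15.7% in each. The summed FPKM of 5 proximal tubule markers, of which Slc34a1 was the most abundant, was 1061.05, 1087.15 and 1148.97 in Control libraries, 343.46, 342.66 and 348.02 in HN and 658.05, 770.35 and 464.51 in PEC libraries. All 5 were called lower in HN than in Control and higher in PEC than in HN (3 with library totals, and 3 to 5 with 1 library left out), and PEC replicate 3, the PEC library with the most Il6, Il11 and Lifr, had the lowest sum of its group. The 4 macrophage markers, led by Cd14, summed to 12.55, 13.96 and 13.17 FPKM in Control, 130.38, 134.99 and 117.69 FPKM in HN and 56.03, 62.97 and 73.21 FPKM in PEC libraries. All 4 were called higher in HN than in Control, and 3 were called lower in PEC than in HN (2 with the length trend removed, and 1 to 3 with 1 library left out). The 4 fibroblast and pericyte markers, led by Col1a1, were all called higher in HN, with sums of 16.82 to 23.68 FPKM in Control, 137.35 to 153.59 FPKM in HN and 67.07 to 76.59 FPKM in PEC libraries, and 3 (2 with the length trend removed) were called lower in PEC than in HN.

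The 4 T cell markers, led by Cd4, were all called higher in HN than in Control, with sums of 0.67 to 0.94 FPKM in Control, 5.87 to 10.37 FPKM in HN and 3.04 to 4.30 FPKM in PEC libraries. In PEC against HN 2 of the 4 were called lower, Cd3d (-0.82 ± 0.24 SE, adjusted p = 0.0254) and Cd4 (-0.65 ± 0.22 SE, adjusted p = 0.043). The count was 4 with library totals (against 22.7% of all genes) and 0 to 3 with 1 library left out. Both calls were lost without HN replicate 8 or 12 or PEC replicate 1, and that of Cd3d also without PEC replicate 3. That of Cd4 was also lost without HN replicate 4 or PEC replicate 2, with upper-quartile factors and with the length trend removed. Where a call was lost, the adjusted p was 0.0519 to 0.152. Of 3 B and plasma cell markers, led by Jchain, 2 were called higher in HN, with sums of 1.64 to 4.79 FPKM in Control, 13.04 to 27.59 FPKM in HN and 1.03 to 2.64 FPKM in PEC libraries. The count was 3 with library totals (against 37.65% of all genes) and 1 to 2 with 1 library left out. The Cd79a call was lost without Control replicate 2 or 4 or HN replicate 8 or 12 (adjusted p = 0.0562 to 0.0711). Jchain alone of the 3 was called lower in PEC than in HN (-3.56 ± 0.53 SE, adjusted p = 0.000842), as it was with each library left out. Neutrophil markers, led by S100a9, summed to 4.26 to 12.6 FPKM in Control, 17.57 to 31.91 FPKM in HN and 8.59 to 27.83 FPKM in PEC libraries. Of the 4 that were tested 1, Csf3r, was called higher in HN and 0 were called in PEC against HN, and the defining marker Ly6g was at 0 in 6 of the 9 libraries and at 0.12 FPKM or less in the rest. In HN against Control both collecting duct markers, led by Aqp2, were called lower. So were 1 of 2 thick limb markers (Slc12a1 but not Umod) and 1 of 4 endothelial markers (Kdr). With library totals the Kdr call was lost. On that scale Umod (0.63), the endothelial marker Cdh5 (1.00), the podocyte marker Nphs1 (0.73) and the neutrophil marker S100a8 (1.44) were called higher in HN, as were 37.7% of all genes. In PEC against HN 1 of the collecting duct markers, Aqp3 (0.75 ± 0.19 SE, adjusted p = 0.0135), and 1 of the endothelial markers, Emcn (0.60 ± 0.17 SE, adjusted p = 0.0226), were called higher, and 0 thick limb markers were called. Both calls were lost with library totals (0.54 and 0.40) and without HN replicate 8 (0.58 and 0.57), that of Aqp3 also with offsets for length and GC content (0.475), and that of Emcn also without HN replicate 12 (0.55) or PEC replicate 3 (0.40). Without PEC replicate 3 Kdr was called lower (-0.695, adjusted p = 0.0187). Aqp3, Emcn, Cd3d, Cd79a, Csf3r, Ly6g, Slc12a1, Kdr, Cdh5, Nphs1 and S100a8 are named after their values were seen. With TMM factors the 3 podocyte markers, led by Podxl (-0.12 ± 0.08 SE in HN against Control), were not called in HN against Control or in PEC against HN. Neither were the 4 adipocyte markers, led by Cfd, which ranged from 0 to 320.14 FPKM over the 9 libraries. The part of these shifts in the levels of the family was not tested.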

How the data were processed

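The authors deposited 1 table for the 9 kidney libraries, with whole-number counts per gene (not normalized) and FPKM, which they scaled by gene length and library total. The submitters' processing notes list Bowtie 0.12.2 and the builds mm8 and mm9, whereas 51954 of 55144 genes shared with GENCODE M21 had identical GRCm38 coordinates, so coordinates are given on GRCm38. Libraries were grouped by the labels' disease state and treatment, since every title names HN mice. Counts were fitted in edgeR 4.0.16 (R 4.3.3; TMM, glmQLFit, glmQLFTest) with group as the only term, over 20324 genes with a mean count of at least 10. SE is the log2 fold change divided by the root of F. The fit was tested on simulated counts, in which 3-fold changes of genes with a mean count under 100, a range that holds Il6 and Osm, were not called and part of the others were missed, so a gene that was not called may still differ. Members and lists were chosen with earlier results of these data known. Named genes are all members, each gene of lists of 7 or fewer, and of the longer list the 4 highest by mean FPKM and the 4 lowest by adjusted p in HN against Control. A few of these genes are not reported here. Replicates differed beyond counting noise (chi-square per degree of freedom of at least 62.8 in 9 pairs). The sources used here do not say whether each library came from a single mouse, so p-values measure the spread between libraries. Alternatives were DESeq2 1.42.0, limma 3.58.1 on log2(FPKM + 1) or log2(FPKM + 0.1), other factors, filters and thresholds, offsets for gene length (spline, 5 degrees of freedom) and each library left out. qPCR, protein and histology were not used here.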

Additional observations from a re-analysis of the deposited data

How the results depend on the processing

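Members called in HN against Control numbered 5 to 8 under all alternatives, where Il6 and Osm were not tested with a mean FPKM of at least 0.5. The 8 came with library totals, where 37.65% of all genes were called higher. In PEC against HN the 2 calls became 6 with library totals (against 22.7% of all genes called lower) and 4 with DESeq2. They became 5 with limma on log2(FPKM + 1) or on log2(FPKM + 0.1) and 4 with a fit of only the groups compared. At an unadjusted p there were 4, and with 1 library left out 1 to 4. All of these calls were lower in PEC. Shares of all genes are not given for these settings other than library totals. The cause of these changes was not tested. In PEC against Control 7 calls became 4 with limma on log2(FPKM + 1), where Il6 and Osm were not tested and Il11, at 0.53, was under the fold required. With offsets for length and GC content, chosen after seeing the data, 7, 3 and 6 members were called. The 7 were higher in HN than in Control (against 17.27% of all genes). The 3 were lower in PEC than in HN (against 11.56%), and the 6 were higher in PEC than in Control (against 18.48%). Of the log2 fold changes of single members, none that was called changed sign. Of those not called, Lifr in HN against Control became 0.11 with library totals and 0.076 and 0.088 with limma (pseudocounts of 1 and 0.1). Il6st in PEC against HN became 0.13 with the length offset and 0.038 with that for length and GC content. Il6ra in PEC against Control became 0.25 with library totals, 0.074 with upper-quartile factors, 0.11 and 0.22 with limma, 0.13 with the length offset, 0.14 without Control replicate 4 and 0.01 without PEC replicate 1, over a range of -0.25 to 0.142 with 1 library left out. Il6st there became 0.27 with library totals, 0.074 with upper-quartile factors, 0.24 and 0.26 with limma, 0.22 with the length offset, 0.15 with length and GC content and 0.089 without Control replicate 5, over a range of -0.287 to 0.089. In all 19 values reversed, 23 passed the threshold only under an alternative, 7 lost it and 473 kept direction and side. No paired analysis was possible because the groups compared share fewer than 2 replicate numbers. Counts of Il6 and Osm limit their precision in Control libraries.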
